A study of Cricetulus griseus with 24 samples.

Results

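The genes described are 10 hypoxia-inducible genes, chosen by name as Hif1a itself and genes known as targets or regulators of its protein product. The members were the rows of the gene count table whose symbol matched one of the 10 names in any letter case. Of the 10, 9 were found among the 28037 genes of the table, under the gene identifiers 100751293 (Hif1a), 100772704 (Egln1), 100755957 (Vegfa), 100760129 (Adm), 100774634 (Bnip3), 100759633 (Bnip3l), 100758250 (Ndrg1), 100757890 (P4ha1) and 100771039 (Ankrd37). Egln3, a prolyl hydroxylase related to Egln1, had no row under its symbol. Its identifier in RefSeq, 100754377, stood in the table as LOC100754377 with 0 to 3 counts per library and 6 counts in all, spread over 4 of the 24 libraries, so no comparison was made for it. Each of the 9 genes passed the filter on low counts in every comparison.

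When oxygen is plentiful, prolyl hydroxylases such as Egln1 modify the HIF-1 alpha protein, and the von Hippel-Lindau complex then marks it for degradation. When oxygen is scarce the protein is stable, pairs with Arnt and activates genes for blood vessel growth, mitophagy, collagen processing and glycolysis, among them the gene of its own hydroxylase Egln1. Because this control acts mainly on the protein, the level of the Hif1a transcript is not a measure of the activity of the pathway.

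Poly(A) RNA of 3 Chinese hamster ovary (CHO) cell lines was sequenced in exponential and in stationary phase. A0 is an antibody-producing CHO DG44 line made with 1 plasmid for the IgG heavy chain and 1 for the light chain and neomycin phosphotransferase, selected with G418. A1 is its progeny, amplified by stepwise increases of methotrexate, and CHO-S is a separate CHO line. The titles of the CHO-S samples carry NDST, a term the labels do not explain, so whether this line was modified is not known here. A0 and A1 were grown in shake flasks in serum-free medium with hydrolysate and recombinant insulin, and the medium of CHO-S is not given in the sources used here. Each was a single cell line, so a difference between lines cannot be told apart from a difference between clones or, against CHO-S, in culture conditions. The groups were 4 A0, 3 A1 and 3 CHO-S cultures at each phase. The 8 A0 exponential libraries carry 4 culture numbers and were summed by culture, which left 20 culture samples from 24 libraries. No source used here gives an oxygen level for these cultures.

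Reads assigned to genes numbered between 6532373 and 14652646 per library in 23 libraries. CHO-S stationary culture 1 stood apart, with 1038026 gene counts and 32.8% of its reads outside annotated genes, against at most 18.4% in the others, so results that rest on it are also given without it. Of 15 proliferation genes, 14 were lower in stationary than in exponential phase in A0, 14 in A1 and 9 in CHO-S, and 15 in CHO-S without culture 1. In CHO-S stationary culture 1, Top2a was at 1072 CPM (counts scaled to a fixed library total) and Mki67 at 761 CPM. These were near the CHO-S exponential cultures, at 1110 to 1143 and 769 to 832 CPM. Stationary cultures 2 and 3 had 666 and 669 CPM of Top2a and 408 and 424 CPM of Mki67. Mcm3 at 127 and Mcm5 at 80.5 CPM in culture 1 were instead below cultures 2 and 3. The mesenchymal gene Vim was at 728 to 1465 CPM throughout. Ptprc, Cd3e and Gfap, markers of leukocytes, T cells and astrocytes, had at most 3 counts in any culture, the hemoglobin gene Hbb had 0, and the endothelial gene Cdh5 and the liver gene Alb stayed below 1 CPM, while the endothelial gene Pecam1 reached 7.18 CPM and the muscle actin gene Acta1 ranged from 9.83 to 15.3 CPM in every line. In bulk RNA, fewer cells of a kind and less RNA per cell cannot be told apart.

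Between exponential and stationary phase the hypoxia-inducible genes moved differently in the 3 lines. In A0, 3 of the 9 rose (Vegfa, P4ha1 and Ankrd37) and 2 fell (Adm and Egln1), where 17.7% of all 20267 genes tested rose and 20.1% fell. In A1, 6 of the 9 rose and only Egln1 fell, against backgrounds of 15.6% and 17.8%. When all 6 groups were fitted together, 3 of the 9 were called in A1 (Vegfa, Bnip3l and P4ha1), and Hif1a (0.29, adjusted p = 0.28), Egln1 (-0.33, adjusted p = 0.16), Bnip3 (0.20, adjusted p = 0.42) and Ndrg1 (0.24, adjusted p = 0.49) were not. The calls over all genes in A1 went from 6196 to 2470 in that fit. In CHO-S, 7 of the 9 rose and 0 fell, against 6.81% and 6.48% of genes. The median log2 fold change of the 9 genes was 0.16 in A0, 0.31 in A1 and 1.18 in CHO-S, and that of all genes tested was 0.00131, 0.0321 and 0.0229. Calls are at an adjusted p under 0.05 from edgeR's quasi-likelihood test, and levels are CPM after trimmed mean of M-values (TMM) normalization. Errors of log2 fold changes are approximate standard errors, the size of the log2 fold change divided by the square root of the test's F statistic.

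**Figure D1:**
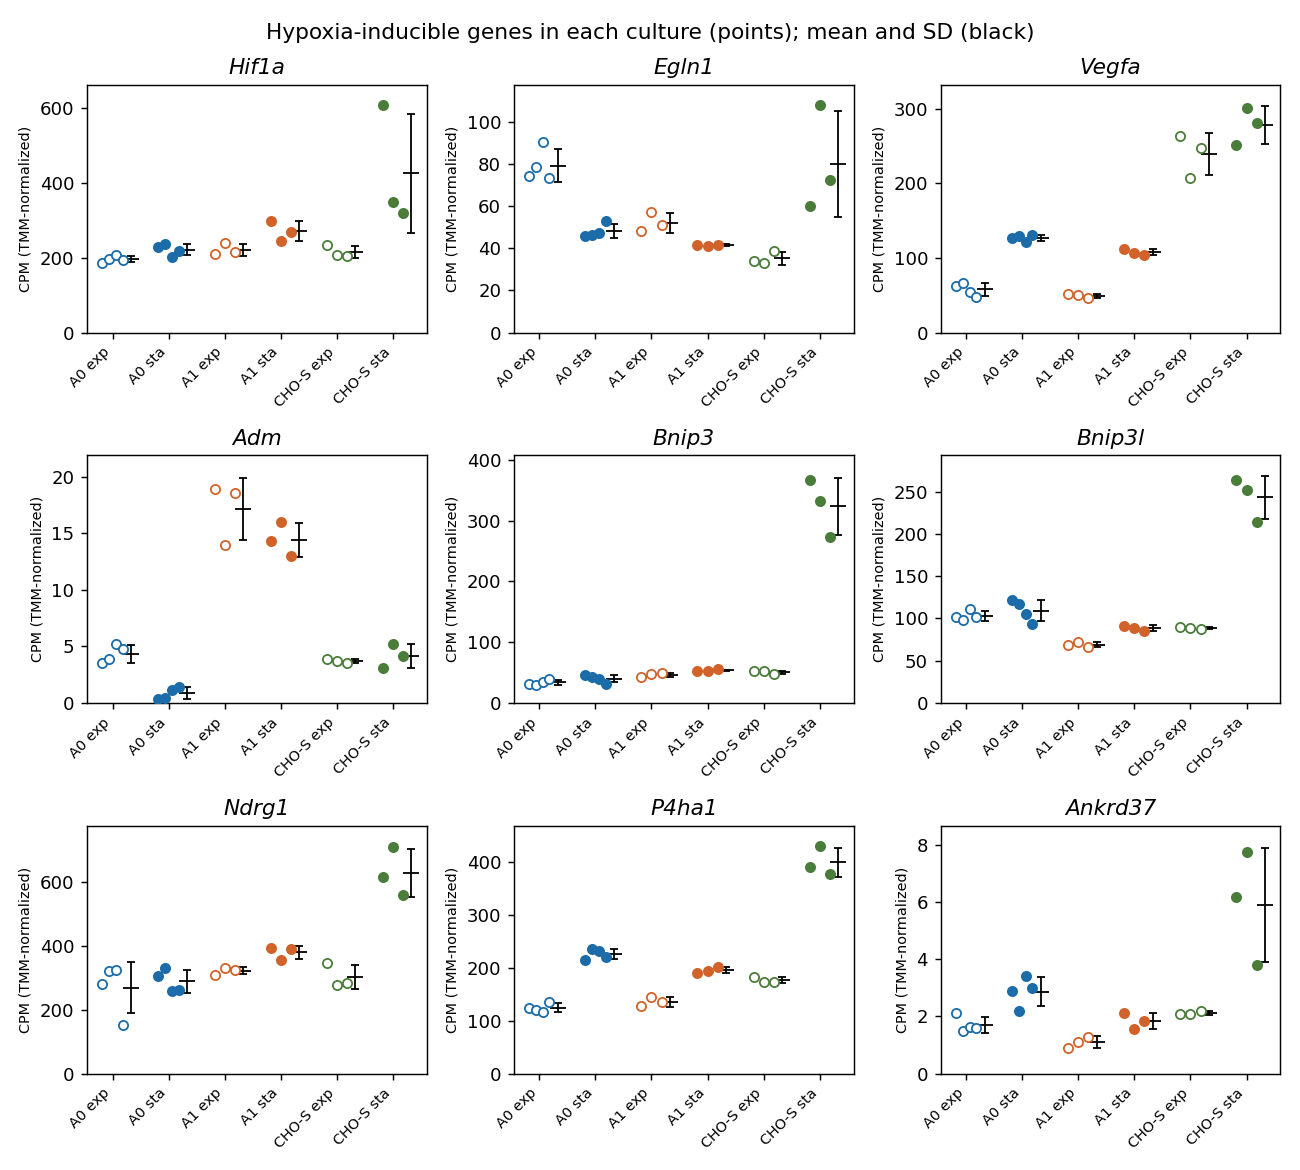
TMM-normalized CPM (y axis, linear, from 0) of each of the 9 genes in every culture (points), with open points for exponential and filled points for stationary cultures of A0 (n = 4), A1 (n = 3) and CHO-S (n = 3), and the mean with SD in black. Bnip3 stands at 273 to 366 CPM in CHO-S stationary cultures and at 30.2 to 55.3 CPM in all others, and Adm stands at 13 CPM or more in A1 only.

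Hif1a, the oxygen-regulated subunit of HIF-1, had 187, 197, 206 and 195 CPM in A0 exponential and 227, 236, 202 and 218 CPM in A0 stationary cultures. The A1 values were 210.2, 239 and 214 CPM in exponential and 299, 244 and 267 CPM in stationary cultures. The CHO-S values were 233, 206 and 205 CPM in exponential and 608, 349 and 319 CPM in stationary cultures. The phases overlapped in A0 and stood apart in A1 and CHO-S, and the shallow CHO-S culture 1 held the top value of all. The log2 fold change was 0.16 ± 0.089 (adjusted p = 0.17) in A0, and Hif1a rose by 0.31 ± 0.065 (adjusted p = 0.00035) in A1 and by 0.98 ± 0.25 (adjusted p = 0.044) in CHO-S. Without CHO-S stationary culture 1 the rise was 0.64 ± 0.047 (adjusted p = 3.7e-22). The call in CHO-S was lost when any 1 of the other 5 cultures was left out, with adjusted p of up to 0.175.

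At exponential phase the CHO-S cultures overlapped those of both other lines in Hif1a, and the A1 cultures were just above the A0 cultures. No difference between lines passed the test there, the nearest being A1 over A0 at 0.17 ± 0.085 (adjusted p = 0.16). At stationary phase A1 was above A0 by 0.28 ± 0.083 (adjusted p = 0.017) and A0 was below CHO-S (-0.95 ± 0.22, adjusted p = 0.0057). A1 over CHO-S was -0.67 ± 0.25 (adjusted p = 0.072), and -0.34 ± 0.068 (adjusted p = 1.2e-05) without CHO-S culture 1. Ordered by mean, the levels fell from CHO-S stationary at 425 ± 159 CPM (SD, n = 3) to A1 stationary at 270.2 ± 27.3 CPM (SD, n = 3), both apart from the next group, and then through A0 stationary, A1 exponential, CHO-S exponential and A0 exponential, where each neighboring pair overlapped. The higher Hif1a of A1 over A0 at stationary phase was no longer called when A1 stationary culture 1 (0.20, adjusted p = 0.11) or 3 (0.28, adjusted p = 0.059) was left out.

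Egln1 encodes the main HIF prolyl hydroxylase and is itself a HIF target. Its CPM were 74.3, 78.8, 90.3 and 73.1 in A0 exponential and 45.7, 46.2, 47.2 and 53.1 in A0 stationary cultures. In A1 they were 48.1, 57.1 and 51.0 in exponential and 41.7, 40.9 and 41.8 in stationary cultures. In CHO-S they were 33.9, 33.1 and 38.9 in exponential and 59.9, 108 and 72.2 in stationary cultures. The phases stood apart in every line, with the stationary cultures lower in A0 and A1 and higher in CHO-S.

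Egln1 fell by 0.73 ± 0.10 on the log2 scale in A0 (adjusted p = 2.5e-05), fell by 0.31 ± 0.076 in A1 (adjusted p = 0.0017) and rose by 1.21 ± 0.22 in CHO-S (adjusted p = 0.014). Without CHO-S stationary culture 1 the rise in CHO-S was 1.40 ± 0.077 (adjusted p = 1.4e-29), and leaving out any 1 of the other 5 CHO-S cultures lost the call, with adjusted p of 0.0524 to 0.105. The difference in response was itself past the test for A0 against CHO-S (-1.98 ± 0.23, adjusted p = 1.2e-05) and for A1 against CHO-S (-1.58 ± 0.22, adjusted p = 0.0007), 2 differences that share the CHO-S cultures. The difference between A1 and A0 was 0.38 ± 0.13 (adjusted p = 0.077). With each culture number as a block over both phases it was 0.38 with an adjusted p of 0.039.

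CHO-S had the lowest Egln1 of the 3 lines in exponential and the highest in stationary cultures. In exponential cultures A0 at 79.2 ± 7.83 CPM (SD, n = 4) was highest and CHO-S at 35.3 ± 3.13 CPM (SD, n = 3) lowest, and all 3 lines differed from each other. A0 was above CHO-S by 1.18 ± 0.10 (adjusted p = 3.2e-07), A1 was above CHO-S by 0.55 ± 0.075 (adjusted p = 8.8e-07) and A1 was below A0 (-0.61 ± 0.10, adjusted p = 0.00048). In stationary cultures both DG44 lines were below CHO-S, A0 by -0.78 ± 0.19 (adjusted p = 0.0078) and A1 by -0.997 ± 0.21 (adjusted p = 0.008). Without CHO-S stationary culture 2, which held the top Egln1 value, the stationary difference of A0 from CHO-S was -0.43 and no longer called (adjusted p = 0.101). Over all groups the neighbors CHO-S stationary and A0 exponential overlapped, as did A1 exponential and A0 stationary, while the other neighbors stood apart.

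Vegfa, which encodes the growth factor that drives blood vessel formation, went the other way. It had 61.9, 67.0, 53.7 and 48.2 CPM in A0 exponential and 127, 129, 121 and 131 CPM in A0 stationary cultures. In A1 it had 51.1, 49.8 and 45.9 CPM in exponential and 112, 107 and 105 CPM in stationary cultures. In CHO-S it had 263, 208 and 247 CPM in exponential and 252, 301 and 281 CPM in stationary cultures. The phases did not overlap in A0 or A1 and did overlap in CHO-S, where even the exponential cultures were above every culture of the other lines.

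Vegfa rose 2.18-fold in A0 (log2 fold change 1.13 ± 0.11, adjusted p = 6.4e-07) and 2.23-fold in A1 (1.16 ± 0.067, adjusted p = 1.9e-14). In CHO-S the log2 fold change was 0.22 ± 0.14 (adjusted p = 0.35), and 0.29 ± 0.051 without stationary culture 1, which then passed the test (adjusted p = 6.8e-07). The response was larger than in CHO-S by 0.89 ± 0.19 in A0 (adjusted p = 0.0051) and by 0.92 ± 0.16 in A1 (adjusted p = 0.0035). Between A1 and A0 it differed by -0.01 ± 0.14 (adjusted p = 1.0). Across lines, Vegfa in A0 was below CHO-S by -2.04 ± 0.12 at exponential (adjusted p = 4e-09) and -1.15 ± 0.13 at stationary phase (adjusted p = 8.2e-05). A1 was below CHO-S by -2.30 ± 0.071 (adjusted p = 5.1e-18) and -1.39 ± 0.14 (adjusted p = 0.0002). A1 over A0 was -0.24 ± 0.11 at exponential phase (adjusted p = 0.15), where the cultures overlapped, and -0.25 ± 0.069 at stationary phase (adjusted p = 0.012), where they did not. Leaving out A0 exponential culture 4 brought the exponential difference past the test (-0.32, adjusted p = 0.029). Leaving out A1 stationary culture 2 or 3 took the stationary one out of it (-0.24 and -0.23, both with an adjusted p of 0.057).

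Adm encodes adrenomedullin, a secreted vasodilator peptide. Its CPM were 3.50, 3.88, 5.25 and 4.80 in A0 exponential and 0.372, 0.42, 1.17 and 1.42 in A0 stationary cultures, the latter from 4, 5, 15 and 19 reads. In A1 they were 18.9, 14 and 18.5 in exponential and 14.4, 16 and 13 in stationary cultures. In CHO-S they were 3.93, 3.68 and 3.57 in exponential and 3.10, 5.20 and 4.20 in stationary cultures, with 3 reads behind the first stationary value. Every A1 culture was above every culture of the other lines, and every A0 stationary culture was below all the rest.

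Adm fell in A0 by 2.32 ± 0.32 on the log2 scale (adjusted p = 2.4e-05). The log2 fold change was -0.23 ± 0.12 in A1 (adjusted p = 0.16) and 0.33 ± 0.18 in CHO-S (adjusted p = 0.27). Without A1 exponential culture 2 the value in A1 was -0.36 and past the test (adjusted p = 0.031). In the main fit, without a block on culture number, Adm was the only 1 of the 9 whose phase response differed between A1 and A0. The difference was 2.04 ± 0.34 (adjusted p = 0.00058), and 8.94% of all genes passed the test. With the culture number as a block Egln1 and P4ha1 were called as well, and calls over all genes went from 1873 to 3435. The response of Adm in A0 differed from that in CHO-S by -2.65 ± 0.43 (adjusted p = 0.00041). At exponential phase A1 was 3.94-fold above A0 (1.98 ± 0.17, adjusted p = 7.4e-07) and 4.58-fold above CHO-S (2.20 ± 0.14, adjusted p = 4.7e-12). At stationary phase it was 16.2-fold above A0 (4.02 ± 0.28, adjusted p = 1.6e-07), with few A0 reads behind that fold, and 3.07-fold above CHO-S (1.62 ± 0.18, adjusted p = 0.00035). A0 was below CHO-S at stationary phase (-2.39 ± 0.41, adjusted p = 0.001) and at 0.23 ± 0.19 relative to it at exponential phase (adjusted p = 0.32). All 14 fits that left out 1 culture kept the call of the difference between A1 and A0 responses, with values of 1.82 to 2.42.

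Bnip3 and Bnip3l encode related receptors of the outer mitochondrial membrane that mark mitochondria for autophagy. Bnip3 had 31.1, 30.2, 34.9 and 39.5 CPM in A0 exponential and 46.9, 42.8, 39.7 and 31.6 CPM in A0 stationary cultures. In A1 it had 43.0, 47.5 and 49.5 CPM in exponential and 52.5, 52.9 and 55.3 CPM in stationary cultures. In CHO-S it had 52.1, 52.5 and 48.0 CPM in exponential and 366, 332 and 273 CPM in stationary cultures. The phases overlapped in A0, were narrowly apart in A1 and were far apart in CHO-S.

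Bnip3 rose 6.36-fold in CHO-S (2.67 ± 0.16, adjusted p = 0.0013). It rose by 0.22 ± 0.073 in A1 (adjusted p = 0.021), which did not pass when A1 exponential culture 1 (0.16, adjusted p = 0.15) or A1 stationary culture 3 (0.19, adjusted p = 0.099) was left out. In A0 the log2 fold change was 0.23 ± 0.13 (adjusted p = 0.17), and 0.33 without stationary culture 4, which then passed (adjusted p = 0.046). The response was smaller than in CHO-S by -2.44 ± 0.21 in A0 (adjusted p = 6.8e-07) and by -2.45 ± 0.17 in A1 (adjusted p = 7.8e-06). At stationary phase A0 was below CHO-S by -3.02 ± 0.18 (adjusted p = 1.2e-06) and A1 by -2.61 ± 0.17 (adjusted p = 2e-05), and at exponential phase A0 was below it by -0.57 ± 0.10 (adjusted p = 0.00033) while A1 stood at -0.13 ± 0.066 (adjusted p = 0.10). A1 was above A0 by 0.46 ± 0.11 at exponential (adjusted p = 0.0058) and 0.40 ± 0.11 at stationary phase (adjusted p = 0.012), the latter resting on A1 stationary culture 3 (0.37 with an adjusted p of 0.062 otherwise).

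Bnip3l had 102, 97.6, 111 and 101 CPM in A0 exponential and 122, 117, 105 and 93.4 CPM in A0 stationary cultures. The A1 values were 68.1, 72.2 and 66.5 CPM in exponential and 91.6, 89.1 and 85.2 CPM in stationary cultures. The CHO-S values were 90.1, 89.0 and 87.8 CPM in exponential and 263, 252 and 214 CPM in stationary cultures. As with Bnip3, the CHO-S stationary cultures stood above all others, and the A0 phases overlapped. Bnip3l rose 2.74-fold in CHO-S (1.45 ± 0.13, adjusted p = 0.0029) and by 0.38 ± 0.064 in A1 (adjusted p = 2e-05), with 0.07 ± 0.099 in A0 (adjusted p = 0.61). Its response was smaller than in CHO-S by -1.38 ± 0.17 in A0 (adjusted p = 3.1e-05) and by -1.07 ± 0.15 in A1 (adjusted p = 0.00068).

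Between A1 and A0 the 2 receptors differed in opposite directions. Bnip3l was lower in A1 by -0.58 ± 0.087 at exponential (adjusted p = 0.00021) and -0.31 ± 0.091 at stationary phase (adjusted p = 0.016). Leaving out A1 stationary culture 2 (-0.31, adjusted p = 0.062) or 3 (-0.29, adjusted p = 0.075) ended the stationary call. Against CHO-S at exponential phase, Bnip3l was lower in A1 (-0.37 ± 0.053, adjusted p = 1.9e-06) and slightly higher in A0 (0.22 ± 0.081, adjusted p = 0.034). That small A0 excess was not past the test without A0 exponential culture 3 (0.18, adjusted p = 0.053) or without CHO-S exponential culture 1 (0.22, adjusted p = 0.104), 2 (0.21, adjusted p = 0.122) or 3 (0.20, adjusted p = 0.143). At stationary phase Bnip3l was below CHO-S by -1.17 ± 0.16 in A0 (adjusted p = 0.00021) and by -1.47 ± 0.15 in A1 (adjusted p = 0.0002).

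The 4 A0 cultures did not move together in Bnip3 and Bnip3l. Taking each stationary culture against the exponential culture of the same number, the log2 ratio of Bnip3 was 0.59, 0.50, 0.18 and -0.32, and that of Bnip3l was 0.26, 0.26, -0.08 and -0.12. Cultures 1 and 2, whose exponential RNA has a second library marked RLT, were above cultures 3 and 4, whose second library is marked as a duplicate. This division was not particular to the 2 receptors. Hif1a had 0.29, 0.26, -0.03 and 0.16. Cultures 3 and 4 were the higher ones in Adm (-3.23, -3.21, -2.17 and -1.75), Vegfa (1.03, 0.95, 1.17 and 1.44) and Ankrd37 (0.45, 0.56, 1.06 and 0.89). Egln1, Ndrg1 and P4ha1 did not divide this way. In cultures 1 and 2 alone Bnip3 passed the test (0.54, adjusted p = 0.0019), as did Bnip3l (0.25, adjusted p = 0.024). In cultures 3 and 4 alone Bnip3 was at -0.06 (adjusted p = 0.78) and Bnip3l at -0.10 (adjusted p = 0.52). The labels do not say whether the 2 pairs of cultures were grown apart, and the part of such a batch in these values was not tested.

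**Figure D2:**
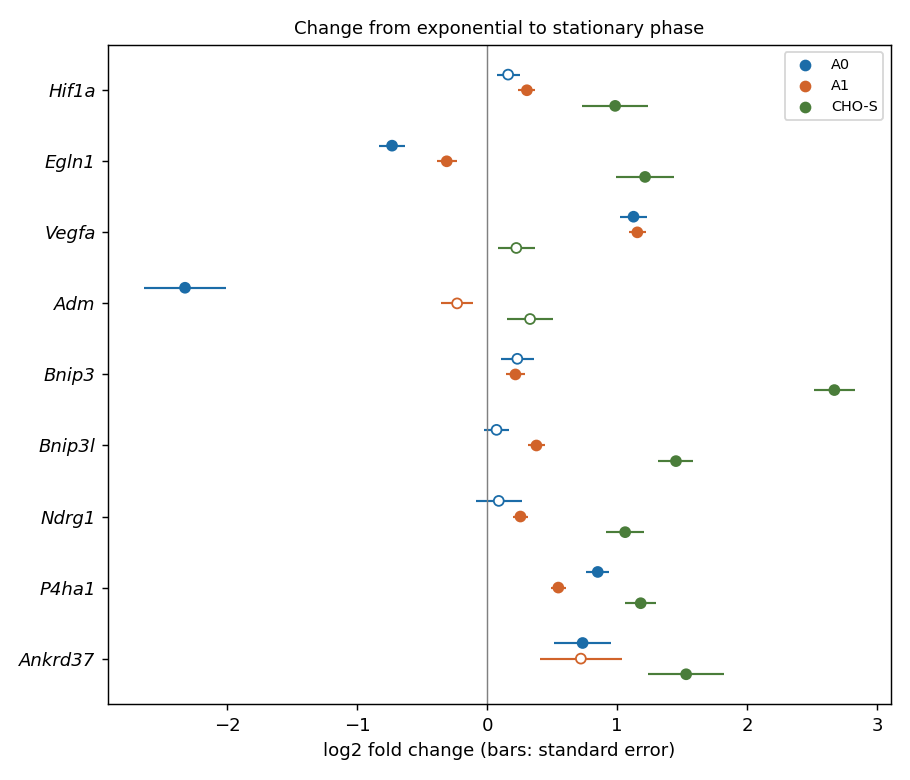
Log2 fold change from exponential to stationary phase (x axis, with standard errors as bars) of the 9 genes in A0, A1 and CHO-S, with filled points where the adjusted p was under 0.05 and open points elsewhere. Egln1 lies at -0.73 and -0.31 in A0 and A1 and at 1.21 in CHO-S, and Vegfa at 1.13, 1.16 and 0.22.

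Ndrg1, a hypoxia-responsive gene linked to growth arrest and differentiation, had 281, 319.7, 324 and 152 CPM in A0 exponential and 306, 330.4, 257 and 261 CPM in A0 stationary cultures. The A1 values were 309, 330.2 and 324 CPM in exponential and 394, 354 and 388 CPM in stationary cultures. The CHO-S values were 345, 277 and 283 CPM in exponential and 614, 709.9 and 559 CPM in stationary cultures. The low A0 exponential culture 4 was low in both of its libraries, at 153 and 157 CPM by library total, where the other 6 libraries had 261 to 318. Ndrg1 rose by 1.06 ± 0.15 in CHO-S (adjusted p = 0.0061) and by 0.26 ± 0.056 in A1 (adjusted p = 0.00045), and stood at 0.09 ± 0.18 in A0 (adjusted p = 0.75). In A0 the value was -0.10 without exponential culture 4, so its sign rests on that culture.

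The rise of Ndrg1 in CHO-S lost its call without exponential culture 2 (1.01, adjusted p = 0.068) or 3 (1.02, adjusted p = 0.063). Its response was smaller than in CHO-S by -0.98 ± 0.28 in A0 (adjusted p = 0.032), a call kept in 6 of the 14 fits that left out 1 culture, and by -0.81 ± 0.16 in A1 (adjusted p = 0.0082), kept in all 12. At exponential phase no difference between lines passed the test for Ndrg1, with A1 over A0 at 0.25 ± 0.18 (adjusted p = 0.35) and A1 over CHO-S at 0.08 ± 0.060 (adjusted p = 0.25), or 0.19 (adjusted p = 0.0024) without CHO-S exponential culture 1. At stationary phase A1 was above A0 by 0.38 ± 0.091 (adjusted p = 0.0048), and below CHO-S were both A0 (-1.14 ± 0.16, adjusted p = 0.00025) and A1 (-0.75 ± 0.14, adjusted p = 0.0047).

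P4ha1 encodes the catalytic subunit of collagen prolyl 4-hydroxylase, which acts on collagen in the endoplasmic reticulum and not on HIF. It had 124, 119.7, 116 and 135 CPM in A0 exponential and 214, 235, 231 and 220.2 CPM in A0 stationary cultures. In A1 it had 126, 145 and 134 CPM in exponential and 189.5, 194 and 201 CPM in stationary cultures. In CHO-S it had 183, 174 and 173 CPM in exponential and 390.1, 429 and 377 CPM in stationary cultures. The phases stood apart in all 3 lines, always with the stationary cultures above.

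P4ha1 was the gene of the 9 that rose past the test in every line, by 0.85 ± 0.089 in A0 (adjusted p = 1.8e-06), 0.55 ± 0.060 in A1 (adjusted p = 1.2e-08) and 1.18 ± 0.12 in CHO-S (adjusted p = 0.003). The rise was smaller in A1 than in CHO-S (-0.64 ± 0.14, adjusted p = 0.013), a call just lost without CHO-S exponential culture 2 (-0.62, adjusted p = 0.0505). For A0 against CHO-S the difference was -0.34 ± 0.16 (adjusted p = 0.21), and for A1 against A0 it was -0.34 ± 0.11 (adjusted p = 0.062), or -0.34 with an adjusted p of 0.031 with the culture number as a block. P4ha1 was below CHO-S at both phases, in A0 by -0.50 ± 0.082 (adjusted p = 0.00014) and -0.84 ± 0.13 (adjusted p = 0.00053) and in A1 by -0.39 ± 0.050 (adjusted p = 3.7e-07) and -1.05 ± 0.14 (adjusted p = 0.00063). A1 over A0 was 0.12 ± 0.090 at exponential (adjusted p = 0.36) and -0.22 ± 0.069 at stationary phase (adjusted p = 0.023), the latter kept in 3 of 7 fits that left out 1 culture, and lost when A0 stationary culture 2 (-0.19) or 3 (-0.20), or A1 stationary culture 1 (-0.20) or 2 (-0.21), was left out, with adjusted p of up to 0.092. The order of the group means, from 399 ± 27.2 CPM (SD, n = 3) in CHO-S stationary to 124 ± 8.37 CPM (SD, n = 4) in A0 exponential cultures, had every neighboring pair apart except A1 and A0 at exponential phase.

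Ankrd37, which encodes a small ankyrin repeat protein, was counted at a low level, with 6 to 106 reads per culture. It had 2.12, 1.48, 1.64 and 1.61 CPM in A0 exponential and 2.89, 2.19, 3.43 and 3.00 CPM in A0 stationary cultures. The A1 values were 0.90, 1.11 and 1.30 CPM in exponential and 2.13, 1.57 and 1.83 CPM in stationary cultures. The CHO-S values were 2.07, 2.09 and 2.20 CPM in exponential and 6.19, 7.77 and 3.79 CPM in stationary cultures. The stationary cultures were above the exponential ones in every line without overlap.

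Ankrd37 rose by 0.73 ± 0.22 in A0 (adjusted p = 0.015) and by 1.53 ± 0.29 in CHO-S (adjusted p = 0.016), with 0.72 ± 0.31 in A1 (adjusted p = 0.077). The call in A0 was lost without stationary culture 3 (0.64, adjusted p = 0.056). The call in CHO-S was kept without stationary culture 1 (1.56 ± 0.22, adjusted p = 2.1e-09) or 3, and lost without exponential culture 1 (1.5), 2 (1.52) or 3 (1.56) or stationary culture 2 (0.98), with adjusted p of up to 0.132. No difference in its response between lines passed the test. A1 was below CHO-S at exponential (-0.94 ± 0.27, adjusted p = 0.005) and stationary phase (-1.76 ± 0.32, adjusted p = 0.0036), and A0 was below it at stationary phase (-1.07 ± 0.29, adjusted p = 0.014), though not without CHO-S stationary culture 2 (-0.55, adjusted p = 0.29). A1 was below A0 at stationary phase by -0.68 ± 0.25 (adjusted p = 0.048), a call kept in 1 of the 7 fits that left out 1 culture, the one without A0 culture 2, with adjusted p of up to 0.194 in the rest.

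Counted over the 9 genes, A1 differed from A0 in 4 at exponential phase, with 2 higher (Adm and Bnip3) and 2 lower (Egln1 and Bnip3l), where 12% of all genes were higher and 13.8% lower. At stationary phase it differed in 8, with 4 higher (Adm, Hif1a, Bnip3 and Ndrg1) and 4 lower (Bnip3l, P4ha1, Vegfa and Ankrd37), against 16% and 17.7%. Among the 8, all but Adm differed by less than 0.7 on the log2 scale, and there were 3 calls without A1 stationary culture 3, 4 without culture 2 and 5 without culture 1. Over all genes these fits gave 5048, 4863 and 5353 calls, against 6496 with all cultures. When all 6 groups were fitted together 3 were called (Adm, Bnip3 and Bnip3l), with 5151 calls over all genes. Hif1a (0.29, adjusted p = 0.17), Vegfa (-0.24, adjusted p = 0.15), Ndrg1 (0.39, adjusted p = 0.10), P4ha1 (-0.21, adjusted p = 0.13) and Ankrd37 (-0.67, adjusted p = 0.065) were not called in that fit. In the main fit of A1 against A0 at stationary phase Egln1 was at -0.23 ± 0.084 (adjusted p = 0.052), and -0.25 (adjusted p = 0.040) without A0 culture 1.

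Against CHO-S, A0 had 2 of the 9 higher and 3 lower at exponential phase, where 27.6% of genes were higher and 21.9% lower, and all 9 lower and 0 higher at stationary phase, against 19.3% lower and 20.7% higher. A1 had 2 higher and 4 lower at exponential phase, with backgrounds of 30% and 27.1%, and 1 higher (Adm) and 7 lower at stationary phase, with 18.2% and 16.6%. Without CHO-S stationary culture 1 all 9 were lower in A0, against 23.8% of all genes, and 8 were lower in A1, against 27.5%. The median log2 difference at stationary phase was -1.14 in A0 and -1.05 in A1, against 0.0800 and 0.0619 over all genes tested, and at exponential phase it was -0.15 and -0.13. These comparisons share the CHO-S cultures, and those of A1 with A0 share the A0 and A1 cultures with them.

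**Figure D3:**
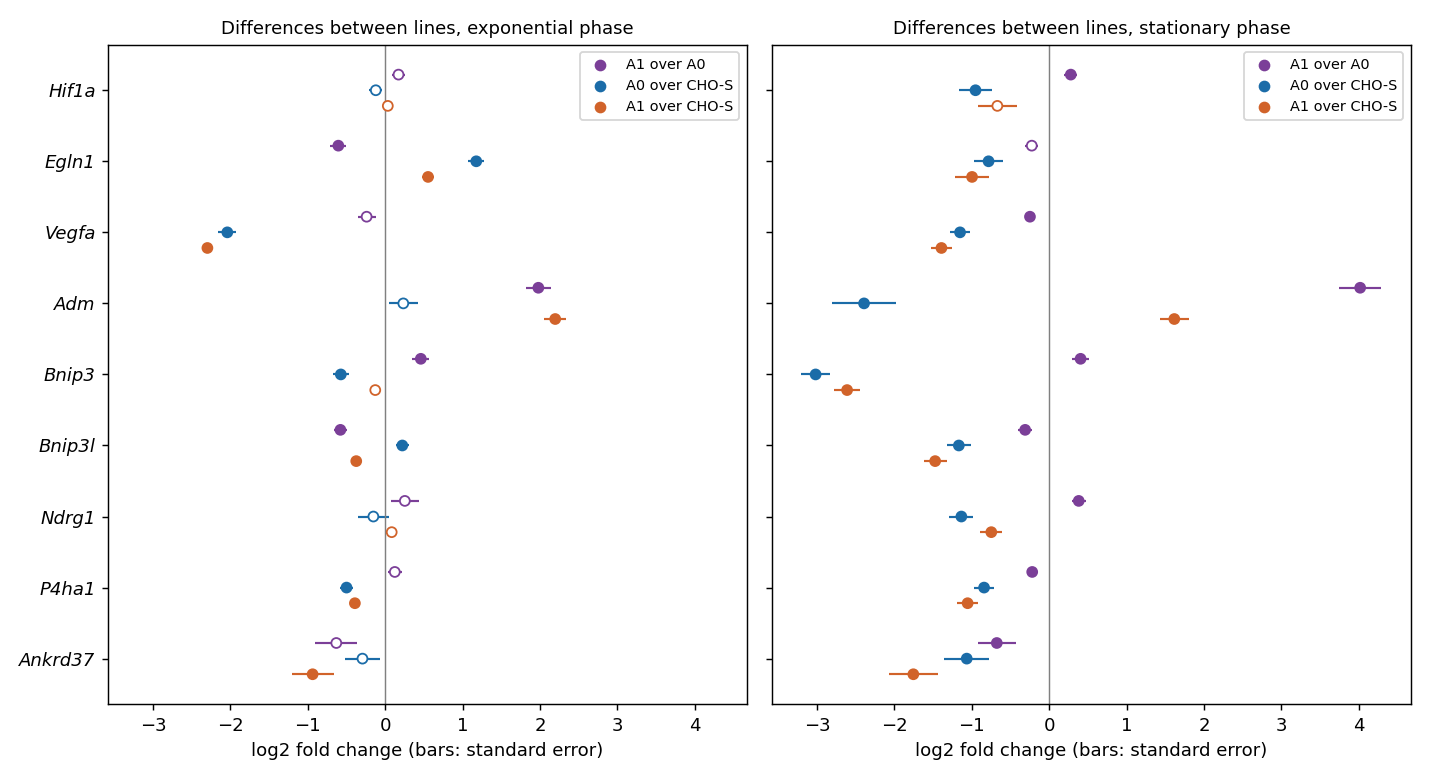
Log2 fold change between lines (x axis, with standard errors as bars) for the 9 genes in exponential (left) and stationary cultures (right), with filled points where the adjusted p was under 0.05. In the right panel all A0 over CHO-S points lie left of 0, from -0.78 for Egln1 to -3.02 for Bnip3, and Adm in A1 over A0 lies at 4.02.

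The difference in phase response itself was past the test for 7 of the 9 genes between A0 and CHO-S, against 10.3% of all genes, and for 6 between A1 and CHO-S, against 7.6%. In both, the difference from the response in CHO-S was above 0 for Vegfa and below 0 for the other called genes. For Egln1 this was a fall in A0 and A1 against a rise in CHO-S. For Adm it was a fall in A0 with no called change in CHO-S. The 7 were Adm, Bnip3, Egln1, Bnip3l, Ndrg1, Hif1a (-0.81 ± 0.23, adjusted p = 0.029) and Vegfa. Hif1a kept its call in 7 of the 14 fits that left out 1 culture. Without CHO-S stationary culture 1 the number was 7 between A0 and CHO-S, where 3586 of all 20868 genes were called, and 8 between A1 and CHO-S, where 4990 of 19655 were.

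The number of calls in CHO-S changed with which of its 6 cultures were fitted. Without stationary culture 1, 8 of the 9 genes rose, against 23.1% of all genes. Without exponential culture 2, 0 of the 9 and 0 of 16938 genes were called by edgeR, while 7 of the 9 and 3471 genes had an unadjusted p under 0.05. The calls numbered 4 without exponential culture 1, 3 without exponential culture 3, 4 without stationary culture 2 and 5 without stationary culture 3. Over all genes the calls in these fits numbered 310, 282, 337 and 574 in the same order, against 2308 with all 6 cultures. Over the 6 fits the log2 fold change was 2.58 to 2.78 for Bnip3, 1.40 to 1.54 for Bnip3l, 1.13 to 1.22 for P4ha1, 0.97 to 1.17 for Ndrg1, 0.94 to 1.40 for Egln1, 0.64 to 1.16 for Hif1a and 0.98 to 1.82 for Ankrd37, above 0 for all 7 genes in each fit.

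Other genes of the HIF pathway were taken from lists of known regulators and targets. Of 14 tested HIF subunits and regulators, 4 rose and 5 fell in A0, against 17.7% and 20.1% of all genes, with Cited2, an inhibitor of HIF coactivator binding, falling by 1.11 ± 0.17 on the log2 scale (adjusted p = 5.6e-05) and Siah2, a ubiquitin ligase that acts on HIF prolyl hydroxylases, rising by 0.53 ± 0.12 (adjusted p = 0.0029). In A1, 1 rose and 1 fell, against 15.6% and 17.8%. The dimerization partner Arnt was up by 0.27 ± 0.066 (adjusted p = 0.0015). Cul2, a scaffold of the von Hippel-Lindau ubiquitin ligase, fell by 0.33 ± 0.063 (adjusted p = 8.9e-05). Both moved the same way in A0, with mean Arnt going from 50.2 to 60.7 CPM and mean Cul2 from 103 to 75.3 CPM. The CHO-S means went from 101 to 125 CPM for Arnt and from 108 to 110 CPM for Cul2. In CHO-S 0 of the 14 passed edgeR's test, 0 had an unadjusted p under 0.05 and DESeq2 called 0, and without stationary culture 1 the count was 1 higher and 2 lower, against 23.1% and 24.7% of all genes. Arnt was higher in A1 than in A0 by 0.42 ± 0.097 at exponential (adjusted p = 0.0053) and 0.39 ± 0.080 at stationary phase (adjusted p = 0.0018), and Cited2 by 0.83 ± 0.14 at stationary phase (adjusted p = 0.00035).

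Among other HIF targets outside glycolysis, 8 of 34 rose and 7 fell in A0, where 17.7% and 20.1% of all genes did, and 7 of 30 rose and 5 fell in A1, where 15.6% and 17.8% did. In CHO-S 10 of 29 rose and 2 fell, against 6.81% and 6.48% of all genes, or 19 and 4 without stationary culture 1, against 23.1% and 24.7%. The median was 0.02 in A0, 0.06 in A1 and 0.56 in CHO-S. In A0, Ddit4, a stress-induced inhibitor of mTORC1, rose by 1.32 ± 0.24 (adjusted p = 0.00035) and Gbe1, the glycogen branching enzyme, fell by 1.30 ± 0.12 (adjusted p = 3.7e-07). Mean Ddit4 also went up in A1, from 16.2 to 31.8 CPM, and went from 34.5 to 20.2 CPM in CHO-S. Mean Gbe1 also went down in A1, from 37.5 to 23.5 CPM, and went up in CHO-S, from 16.9 to 36.9 CPM. In A1, Loxl2, a lysyl oxidase that crosslinks collagen, rose by 1.68 ± 0.17 (adjusted p = 1.9e-09). The mean of Loxl2 also went from 9.20 to 12.6 CPM in A0, with overlapping cultures, and from 15.1 to 42.2 CPM in CHO-S. In CHO-S, Plod2, a collagen lysyl hydroxylase, rose by 1.69 ± 0.29 (adjusted p = 0.012), from 76.1 to 82.0 CPM to 178, 214 and 385 CPM. Without CHO-S stationary culture 1 the rise of Plod2 was 1.31 ± 0.054 (adjusted p = 2.9e-38), and the call was kept in 2 of the 6 fits that left out 1 culture, with adjusted p of up to 0.0894. The transcriptional repressor Bhlhe41 had 277 CPM in CHO-S stationary culture 1 and 60.7 and 57.9 in the other 2, against 15.8 to 20.8 in exponential cultures (2.81 ± 0.63, adjusted p = 0.028). Without that stationary culture the rise of Bhlhe41 was 1.74 ± 0.083 (adjusted p = 7.3e-34), and its call was likewise kept in 2 of the 6 fits, with adjusted p of up to 0.138.

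Most called glycolytic HIF targets were lower in stationary cultures of A0 and A1, and all of those called were higher in CHO-S. Of 20 tested in A0, 4 rose and 8 fell, against 17.7% and 20.1% of all genes, and of 19 in A1, 5 rose and 11 fell, against 15.6% and 17.8%. Of 19 in CHO-S, 8 rose and 0 fell, against 6.81% and 6.48%, or 18 and 0 without stationary culture 1, against 23.1% and 24.7%. The median was -0.07 in A0, -0.30 in A1 and 0.68 in CHO-S. The difference in response from CHO-S passed the test for 9 of 20 in A0, against 10.3% of all genes, and 9 of 19 in A1, against 7.6%, all of them lower than in CHO-S. The glycolytic enzyme gene Gapdh fell by 0.86 ± 0.15 in A0 (adjusted p = 0.0002), and Pfkfb4, which makes the activator of phosphofructokinase, rose by 1.89 ± 0.21 (adjusted p = 2.8e-06). Pfkfb4 also rose in CHO-S by 1.33 ± 0.25 (adjusted p = 0.016), a call kept in 1 of the 6 fits that left out 1 culture. Without CHO-S stationary culture 1 that rise was 1.42 ± 0.14 (adjusted p = 1.6e-15). In A1 Pfkfb4 was at 5.46 to 6.48 CPM in exponential and 7.16 to 8.67 CPM in stationary cultures. Pdk1, the kinase that inhibits pyruvate dehydrogenase, stood higher in stationary cultures of A0, at 43.7 to 60.7 CPM against 27.9 to 34.3 CPM. It rose in A1 by 0.58 ± 0.095 (adjusted p = 1.2e-05) and in CHO-S by 1.45 ± 0.15 (adjusted p = 0.0031). The latter call was lost without CHO-S exponential culture 2, with an adjusted p of 0.055. Without that culture 0 genes of these 3 lists were called in CHO-S.

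**Figure D4:**
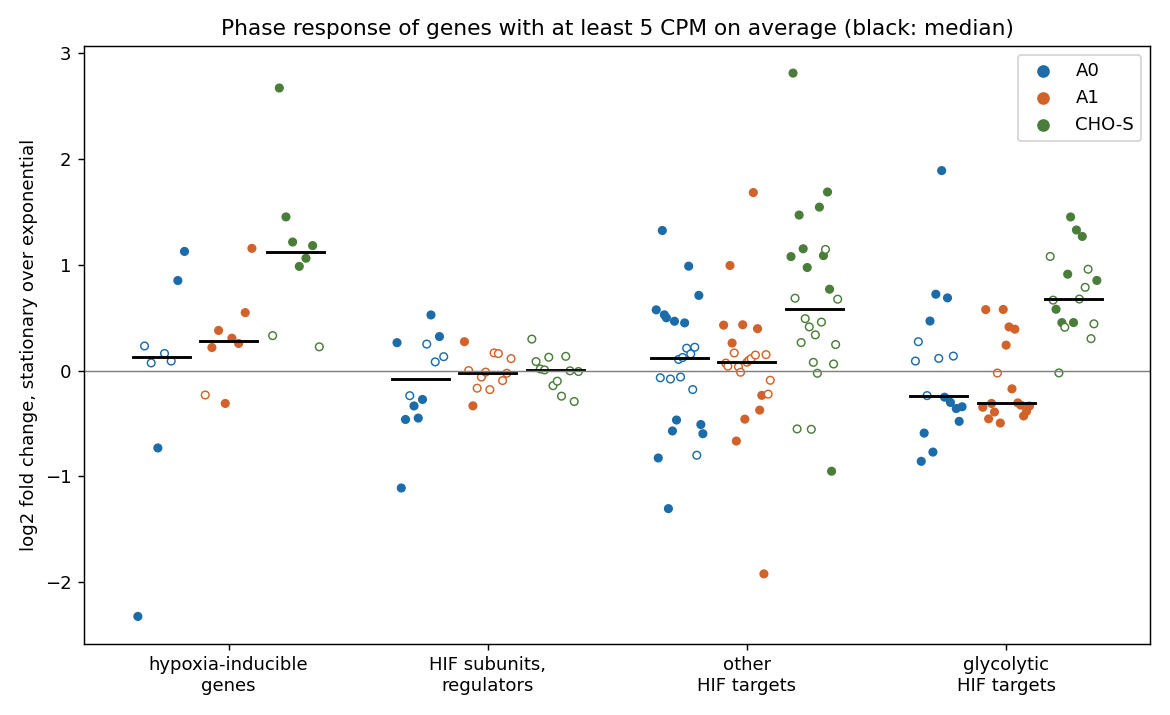
Log2 fold change from exponential to stationary phase (y axis) of the genes of each list with at least 5 CPM on average, in A0, A1 and CHO-S, with filled points where the adjusted p was under 0.05 and the median as a black line. In CHO-S the median is 1.12 for the hypoxia-inducible genes, 0.58 for the other HIF targets and 0.68 for the glycolytic targets, while that of the subunits and regulators is 0.0021.

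Over the 20 cultures, the log2 CPM of the hypoxia-inducible genes was compared with that of 10336 other genes with at least 5 CPM on average, as a description. The closest to Vegfa was Cidec, a lipid droplet protein gene (Pearson r = 0.981, Spearman rho = 0.973), and the closest to P4ha1 was Gem (r = 0.966, rho = 0.901). Mgarp was closest to Bnip3 (r = 0.956, rho = 0.805), Sept8 to Bnip3l (r = 0.946, rho = 0.857), Eps8l2 to Adm (r = 0.943, rho = 0.866), LOC100771510 to Hif1a (r = 0.934, rho = 0.836), Znf341 to Ndrg1 (r = 0.881, rho = 0.597) and Ostf1 to Egln1 (r = 0.868, rho = 0.878). The 20 cultures share 6 groups, so a likeness mostly reflects the order of the group levels. Among the members, Hif1a and Bnip3 were closest (r = 0.875, rho = 0.814), whereas Bnip3 and Bnip3l had r = 0.849 with rho = 0.0436.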

How the data were processed

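The authors aligned stranded mRNA libraries with STAR 2.5.4b to the Chinese hamster genome C_griseus_v1.0, counted reads per gene with HTSeq-count 0.7.2 and deposited raw counts. Whether the counting used strand is not given in the sources used here, so overlapping and antisense genes are uncertain. The 5 summary lines of the table entered neither library sizes nor tests, and 0 sample columns were unused. Of the 28037 gene identifiers, 24186 were paired with RefSeq names of CriGri-PICRH-1.0, a different build, so no coordinates are given.

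Replicates are separately numbered samples of a group, called cultures here, and p-values measure the spread between them, which may be technical. A0 exponential libraries sharing a culture number, the second marked RLT or duplicate, were added together, and the labels do not say whether they are repeat libraries, extractions or cultures. A gene entered a comparison if 2 or more of its cultures had 1 count or more and its variance exceeded 0. The two-sided quasi-likelihood test of edgeR 4.0.16 in R 4.3.3 was run on the groups compared with TMM factors, and p-values were adjusted after Benjamini and Hochberg, with calls below 0.05. Differences of phase response were interaction terms over 4 groups. CPM were normalized over the 20 cultures. Python 3.11.15 with pandas 2.3.3 and numpy 2.4.6 did the rest. Fits of some comparisons of A0 and A1, and of none with CHO-S, were also run on simulated counts, with outcomes not given here.

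All members were named whatever their values. From each list the 2 largest called changes with at least 5 CPM were eligible, plus the gene most like each member. The members and lists were chosen with earlier results of these data known. Of the lists, 15 of 16 subunits and regulators, 37 of 40 other targets, 20 of 21 glycolytic targets and 15 of 15 proliferation genes were matched. Same-numbered A0 cultures deviated together between phases (r = 0.189 to 0.432 over 4 pairs), which was taken to pair them, and in no other comparison did every pair exceed 0.1. Alternatives were DESeq2 1.42.0, RLE size factors, 2 other filters, a fit of all 6 groups, a replicate block, subsets of A0 libraries and cultures, and leaving out each culture. The level of 1 gene that checks the line labels is not reported here.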

Additional observations from a re-analysis of the deposited data

Results flagged for a closer look

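The phase response, the log2 fold change from exponential to stationary phase, differed between lines by the interaction test of edgeR for 14 of the 27 pairs of a member and 2 lines. Of all genes, 8.94% differed between A1 and A0, 10.3% between A0 and CHO-S and 7.6% between A1 and CHO-S. Between A1 and A0 it differed for Adm, by 2.04, in the main fit without a block on culture number. For A0 minus CHO-S the differences were -2.65 for Adm, -2.44 for Bnip3, -1.98 for Egln1, -1.38 for Bnip3l, -0.98 for Ndrg1, -0.81 for Hif1a and 0.89 for Vegfa. For A1 minus CHO-S they were -2.45 for Bnip3, -1.58 for Egln1, -1.07 for Bnip3l, -0.81 for Ndrg1, -0.64 for P4ha1 and 0.92 for Vegfa. The 2 sets share the CHO-S cultures. In the 18 sets of 4 A0 cultures (9 genes at 2 phases), 0 had a sample far from the others by Dixon's criterion, where chance gives 1 in 20, or 0.9 in all.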

How the results depend on the processing

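Over the 12 comparisons, 61 of the 108 fold changes of members kept their call, or their lack of one, in every fit tried. Called values had to keep their direction, while uncalled ones could change sign. An example is Hif1a in A1 against CHO-S at exponential phase, at -0.036 to 0.097 when 1 culture was left out. RLE size factors changed 0 calls, no called value changed sign, and over all alternatives and members a call was gained 39 times and lost 92 times, against 1588 with no change. The number of members called moved by over 1.5 times in 4 comparisons. For A1 stationary against exponential it was 3 in place of 7 when all 6 groups were fitted together, and calls over all genes went from 6196 to 2470. For A1 against A0 at stationary phase it was 3 in place of 8 in that fit, and 3 to 8 when 1 culture was left out. Calls over all genes there went from 6496 to 5151 in the fit of all 6 groups. For CHO-S stationary against exponential it was 7, with 4 under a replicate block and 0 to 8 when 1 culture was left out. Over all genes, leaving out 1 culture gave 0 to 8269 calls there. For the difference of response between A1 and A0 it was 1, against 3 with DESeq2, 3 with edgeR's own filter, 3 with a replicate block, 4 with A0 cultures 1 and 2 alone, 2 with A0 cultures 3 and 4 alone, 3 with the first A0 libraries only and 1 to 3 when 1 culture was left out. The genes called under this replicate block were Adm, Egln1 and P4ha1. The block left the number of A0 phase calls at 5 among the members and took that of all genes from 7647 to 8661. For the difference of response between A1 and A0 it took the genes called from 1873 to 3435. In CHO-S, where same-numbered cultures did not all deviate together, the block took 2308 called genes to 350. The low counts of Adm in A0 stationary cultures, of Ankrd37 throughout and of all genes in CHO-S stationary culture 1 limit precision. That culture also differed from the other CHO-S stationary cultures in the level of well-counted genes such as Top2a, Mki67 and Aldoa. The cause of this was not tested.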
